A study of Mus musculus with 4 samples.

Results

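Collagens and laminins are main proteins of the extracellular matrix, and a set of enzymes cuts them. For these and related matrix proteins 81 genes were read from 119 probes, out of 17876 genes and 25697 probes on the array. A gene was taken where its symbol in the deposited table was a collagen chain, a laminin chain, a fibulin, fibrillin Fbn1 or Fbn2, a nidogen, a matrix metalloproteinase, a tissue inhibitor of metalloproteinases, decorin, lumican, fibronectin or Sparc. The 81 genes fell into 11 fibrillar collagens, 19 basement membrane genes, 25 other matrix genes and 26 enzymes with their inhibitors. Fibronectin, laminin chains Lama3 and Lama5, and collagen chains Col8a1 and Col6a3 were not picked up by these symbols and are not analysed here.

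The cells were E14, a mouse embryonic stem (ES) cell line grown on plates coated with 0.1% gelatin, in medium with LIF, the cytokine that holds ES cells undifferentiated. All cells had been stably infected with a virus that expresses an shRNA, which was a scrambled control sequence (scramble) or was directed against AKAP95 (knockdown), a nuclear anchoring protein encoded by Akap8 and studied here beside the MLL2 histone methyltransferase complex. Each population was measured undifferentiated and after 4 days without LIF and 4 further days as a monolayer with all-trans retinoic acid (RA) at 1 µM, which gave 4 groups of 1 bead array each. What is called the RA effect therefore holds RA, the loss of LIF and time in culture together, and these cannot be told apart. Per the labels all 4 arrays lay on 1 chip, with the RA-treated pair in neighbouring places and the undifferentiated pair in another pair of places, so chip position and RA state cannot be told apart either. With 1 array per group there is no spread between replicates, and the labels give no count of cultures behind an array.

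Signals are the scanner's average bead intensities, given in 1 order throughout: undifferentiated scramble, undifferentiated knockdown, RA-treated scramble, RA-treated knockdown. Akap8 itself read 272, 139, 297 and 199.7, so the knockdown array was the lower of each pair, by 2.27-fold in undifferentiated cells and by 1.70-fold after RA. The 5 ES cell markers were detected on every array and were all at least 2-fold lower after RA in both populations, with summed signals of 34201, 31898, 1245 and 2977. Between 11344 and 12156 of all probes were detected per array, at a detection p under 0.01, and the median signal of an array lay between 75.1 and 82.8. Differences are given on the log2 scale after background correction and normalization, so they are larger than the ratio of the printed signals for dim genes. A difference of at least 1 (2-fold) is called higher or lower, and this is a rule of size with no p-value. Where a gene was detected on 1 side of a pair alone, the difference is a lower bound and is written as "at least".

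Fibrillar collagens form the rope-like fibres of connective tissue, whereas type IV collagen and laminins form sheets called basement membranes, bridged by nidogens. Metalloproteinases (Mmp genes) cut these proteins, and the Timp proteins block the metalloproteinases. In the early embryo the first basement membranes are laid down by cells next to the epiblast, and ES cells in culture make laminin and type IV collagen themselves.

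After RA the matrix genes were higher more often than lower, across all 4 kinds of gene. Of the 81 genes, 47 were detected on at least 1 array, against 55.2% of all genes, and 30 were detected on all 4. Among those 30, 14 were at least 2-fold higher after RA in scramble cells, against 12.7% of all genes detected on all 4 arrays, and 0 were lower, against 11.1%. In knockdown cells 11 of the 30 were higher and 1 was lower, against 11.5% and 8.94%. The median RA effect of the 30 was 0.78 in scramble cells and 0.46 in knockdown cells, where the medians of all genes detected on all 4 arrays were -0.05 and -0.01.

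The 47 genes also held 15 that were detected only after RA, and such genes could only be higher, so counts over all 47 are printed as a description. In scramble cells 20 of 47 were higher and 0 lower, where 14.2% and 11.8% of all genes compared were. In knockdown cells 15 of 43 were higher and 1 was lower, where the shares of all genes were 12.4% and 9.81%. A limma model that adds a term for RA and a term for the shRNA, fitted over all genes on the 4 arrays, called 24 of the 47 as risen and 3 as fallen after RA at an adjusted p under 0.05. The same model called 18.9% of all 9875 genes as risen and 16.3% as fallen. Its error comes from 1 residual degree of freedom pooled over genes, and it used the values without bounds. That degree of freedom holds noise and any difference in RA effect between the populations together. Its SE and adjusted p therefore do not measure a spread between replicates, and a gene whose RA effects differ between populations passes less easily.

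**Figure D1:**
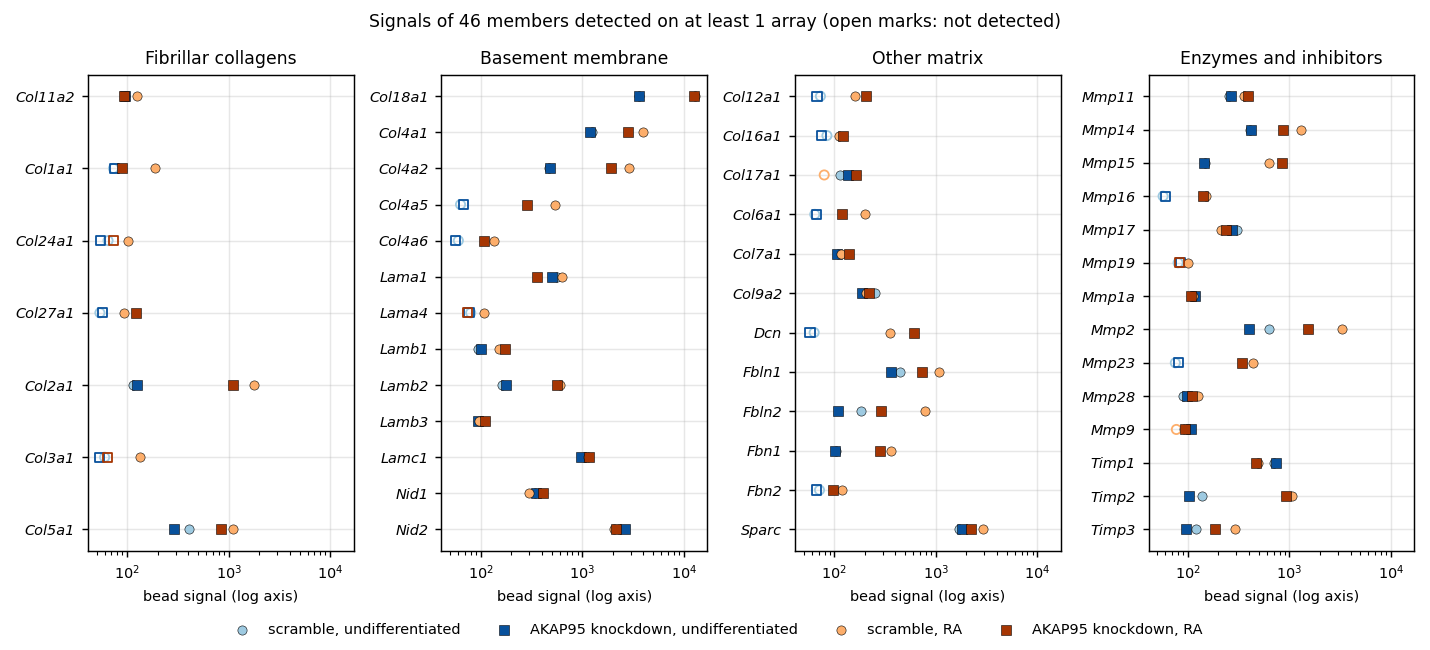
Bead signal (horizontal, log axis) of 46 of the 47 matrix genes detected on at least 1 array, in 4 panels by kind of gene, with 1 mark per array and open marks where the gene was not detected. Circles are scramble and squares knockdown cells, blue undifferentiated and orange or brown RA-treated; Col2a1, Col4a5, Mmp2, Timp2 and Dcn show RA-treated marks far to the right of the undifferentiated ones, while Lamc1 and Nid2 show 4 marks close together.

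The plot of signals by array shows the 4 values behind each of these counts. Markers of other cell types moved with RA too. For comparison with the counts below, 14.2% of all genes compared were at least 2-fold higher and 11.8% lower in scramble cells. In knockdown cells these shares were 12.4% and 9.81%. A marker not detected on the undifferentiated array of a pair could only be higher, so the marker counts are printed as a description. Of 12 compared markers of primitive, parietal and visceral endoderm, tissues that secrete basement membrane, 8 were higher and 1 lower after RA in scramble cells and 5 higher and 1 lower in knockdown cells. In the additive model 7 of 13 endoderm markers rose and 3 fell (Amn, Hnf4a and Sox7), against 18.9% and 16.3% of all genes. Amn and Hnf4a were not detected after RA. Gata4, Foxa2, Pdgfra, Cited1 and Pth1r were detected only after RA, and Thbd, Afp and Ttr were not detected. The endoderm markers had summed signals of 3436, 4216, 13316 and 13576, most of it after RA from Krt8 and Krt18. Krt8 read 1493, 2205, 6325 and 8319, and Krt18 402, 605, 2410 and 2574. All summed signals of marker lists are without background correction and include genes that were not detected, so part of each sum is background. Of 7 compared fibroblast and mesenchyme markers, 3 were higher and 1 lower in scramble cells and 2 higher and 1 lower in knockdown cells. Their summed signals were 2066, 2298, 6789 and 4880, and Twist2, Prrx1, S100a4 and Cdh11 were not detected. Of 4 neural markers 4 were higher in scramble cells, and of 5 in knockdown cells 2 were, with summed signals of 634, 657, 2969 and 1322 and with Sox1 and Pax6 not detected. On the undifferentiated arrays 2 neural markers were detected in scramble and 3 in knockdown cells. Trophoblast markers summed to 2502, 2486, 1861 and 5331, and of 8 compared 5 were higher and 0 lower in knockdown cells, while of 6 compared 2 were higher and 1 lower in scramble cells. Endothelial markers summed to 994, 910.0, 569.8 and 686, with 1 higher and 2 lower in each population and Kdr and Tie1 not detected. The part of any of these cell types in the matrix values was not tested, and in RNA from whole cultures fewer cells of a type and less RNA per cell cannot be told apart.

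Among the fibrillar collagens, Col2a1, the chain of cartilage collagen that is also made by early embryonic epithelia, showed the largest RA effect of the 47 compared genes in scramble cells. In knockdown cells Timp2 and, by its bound, Dcn lay above it. The Col2a1 signals were 113, 124, 1795 and 1107, a 21.4-fold difference in scramble cells and a 10.2-fold difference in knockdown cells. A second Col2a1 probe read 105, 101, 1266 and 852. Both probes were low on the undifferentiated arrays and high on the RA arrays, and Col2a1 rose in the additive model by 3.89 ± 0.32 (SE; limma adjusted p = 0.00994). Col5a1, a minor chain that sets fibre diameter, read 407, 288, 1099.8 and 849 and was 2.43-fold and 2.53-fold higher in scramble and knockdown cells (limma adjusted p = 0.015).

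Col1a1, the main chain of type I collagen, was detected only after RA, with signals of 73.3, 75.6, 187 and 89.1. It was at least 2.72-fold higher in scramble cells, and no fold could be given in knockdown cells, where its RA signal lay near the limit of detection. Its partner chain Col1a2 was not detected on any array. Col3a1, a chain of soft tissue fibres, was detected on the RA-treated scramble array alone, with signals of 60.0, 53.8, 135 and 64.0. Neither passed the limma test for RA (adjusted p = 0.158 and 0.155). Col27a1, a cartilage-type fibrillar chain, read 53.9, 57.5, 92.9 and 122 and rose in the model (limma adjusted p = 0.0221), although its bounds reached at most 0.50. Col24a1 and Col11a2 stayed between 54.8 and 124 on all arrays, and Col11a1, Col5a2 and Col5a3 were not detected.

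In the basement membrane group 7 of 14 compared genes rose in the additive model and 0 fell, against 18.9% and 16.3% of all genes, and 5 were at least 2-fold higher in scramble cells, against 14.2%. The 14 include 3 genes detected only after RA. Col4a1 and Col4a2, the 2 chains that assemble into the standard type IV collagen network, were both higher. Col4a1 read 1238, 1182, 3969 and 2795, a 3.11-fold and a 2.25-fold difference in scramble and knockdown cells. Col4a2 read 474, 482, 2886 and 1903, a difference of 2.58 and of 1.85. For both chains the scramble RA array was the brightest and the 2 undifferentiated arrays were nearly equal. The genes lie head to head on mouse chromosome 8, with starts 21 bases apart on opposite strands in the RefSeq annotation of GRCm38.p6.

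Col4a5 and Col4a6, which form a second kind of type IV network, are another head-to-head pair, on the X chromosome with starts 1343 bases apart. Col4a5 was not detected in undifferentiated cells and read 63.2, 67.6, 535 and 288, at least 9.78-fold higher in scramble and at least 4.52-fold higher in knockdown cells. Col4a6 read 60.2, 56.2, 136 and 108 with bounds of 0.81 and 0.25, and both genes rose in the model (limma adjusted p = 0.0118 and 0.0153). Col4a3 and Col4a4, chains of the kidney type of network, were not detected.

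The bases upstream of Col4a5 and Col4a6 are shown because the neighbouring pair appeared together after RA, beside those of the gene of each other kind with the largest RA effect in scramble cells among genes with an entry and at least 200 upstream bases outside the annotated gene. All are from RefSeq, build GRCm38.p6, 5′ to 3′ on the gene's own strand, and capitals mark a match to any of the motifs searched. They are chrX:141475169-141475369 (+), chrX:141474096-141474326 (-), chr2:27886175-27886380 (+), chr2:125506486-125506688 (-) and chr11:118355412-118355661 (-) in the order shown.
Col4a5: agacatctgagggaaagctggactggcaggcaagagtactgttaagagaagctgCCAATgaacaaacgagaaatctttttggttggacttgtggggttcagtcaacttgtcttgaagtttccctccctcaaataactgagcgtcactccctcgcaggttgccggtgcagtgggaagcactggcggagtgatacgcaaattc
Col4a6: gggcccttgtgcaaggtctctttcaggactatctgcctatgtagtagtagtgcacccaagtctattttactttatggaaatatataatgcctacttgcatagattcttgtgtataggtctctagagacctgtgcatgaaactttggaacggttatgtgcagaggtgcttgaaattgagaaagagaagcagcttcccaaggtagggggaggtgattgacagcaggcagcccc
Col5a1: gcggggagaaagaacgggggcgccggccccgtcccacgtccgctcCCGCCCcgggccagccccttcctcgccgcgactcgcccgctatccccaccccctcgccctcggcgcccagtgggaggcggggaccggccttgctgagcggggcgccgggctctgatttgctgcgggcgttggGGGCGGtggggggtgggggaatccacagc
Fbn1: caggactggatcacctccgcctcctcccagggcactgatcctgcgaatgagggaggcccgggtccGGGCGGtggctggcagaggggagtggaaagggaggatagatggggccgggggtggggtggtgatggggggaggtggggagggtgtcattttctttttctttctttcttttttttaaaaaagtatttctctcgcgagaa
Timp2: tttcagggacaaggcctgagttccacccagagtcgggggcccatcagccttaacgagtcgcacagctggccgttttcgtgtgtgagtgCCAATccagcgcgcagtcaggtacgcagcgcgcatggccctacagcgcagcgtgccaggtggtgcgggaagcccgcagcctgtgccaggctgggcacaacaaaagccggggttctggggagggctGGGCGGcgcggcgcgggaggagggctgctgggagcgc
Col4a5 and Timp2 hold a CCAAT box, while Col5a1, Fbn1 and Timp2 hold a GC box. The Col4a6 stretch holds none of the motifs. Each motif was searched on both strands. They were the GC box, the CCAAT box, the TATA box, the AP-1 site, the nuclear receptor half-site and a direct repeat of that half-site, the form that retinoic acid receptors are known to bind.

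A promoter entry was found for 60 of the 81 genes, 18 of them genes that rose in the additive model, and the 250 bases before each start were searched. A matrix gene was counted for a motif if any of its entries held it, whereas the shares of all promoters count single entries. A gene with several entries thus has more chances to be counted, and the shares below are not in the same unit. A GC box, GGGCGG, was present in 14 of those 18 and in 31 of the 60, where 32.7% of all 32851 promoters had one, and the median GC content was 57.6% in the matrix promoters and 52.4% in all. The half-site, AGGTCA, was present in 0 of the 18 and 10 of the 60, and in 14.0% of all promoters. The TATA box, searched as TATAAA, was present in 0 of the 18 and 13 of the 60, and in 12.4% of all promoters. The CCAAT box was present in 7 of the 18 and 20 of the 60, against 33.8% of all promoters. The AP-1 site, searched as TGANTCA, was present in 1 of the 18 (Col6a1) and 9 of the 60, against 6.75% of all promoters. The direct repeat, in which both half-sites stand 5 bases apart and each also counts as a half-site, was present in 0 of the 60 and in 0.00913% of all promoters. These are matches of letters in short windows and show no binding.

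Col18a1, whose protein is the heparan sulfate collagen that carries endostatin, read 3613, 3629, 12954 and 12552. Its RA effect was 3.66-fold in both populations, so that the 2 RA arrays lay together far above the 2 undifferentiated ones (limma adjusted p = 0.0104). Lamb2, the laminin chain of nerve-muscle junctions and the kidney filter, read 162, 177, 602 and 570.4, a 3.75-fold and a 2.91-fold difference. Lama1, Lamb1 and Lamc1, the chains of the embryonic laminin, did not share 1 pattern of signals. Lamc1 read 1040.2, 968, 1152 and 1172 and differed by at most 0.06 in any comparison. Lamb1 read 93.3, 100.3, 152 and 171 and rose in the model by 0.74 ± 0.16 (SE; limma adjusted p = 0.0396). Lama1 read 569, 507, 637 and 359, so that it was lower by 0.95 after RA in knockdown cells and by 0.09 in scramble cells, and did not pass the test (limma adjusted p = 0.207).

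Other basement membrane genes did not pass the test. Nid2, one of the laminin-binding nidogens, read 2316, 2616, 2052 and 2130.3, and Nid1 read 345, 352, 301 and 413. Lamb3, a chain of the laminin under epithelia such as skin, read 103, 93.9, 95.8 and 109. Lama4, a vessel laminin chain, was detected on the RA-treated scramble array alone (108). Lama2, Lamc3 and Col15a1 were not detected.

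Of the 12 other matrix genes compared, 5 of them detected only after RA, 7 rose in the additive model and 0 fell, against 18.9% and 16.3% of all genes. Dcn encodes decorin, a small proteoglycan that coats collagen fibres. It was not detected in undifferentiated cells and read 63.3, 57.5, 355 and 603, at least 5.98-fold and at least 10.8-fold higher in scramble and knockdown cells (limma adjusted p = 0.00972). Unlike the fibrillar chains Col1a1 and Col3a1, its RA signal was the higher one in knockdown cells. Fbln2, a fibulin that binds elastic fibres and basement membranes, read 182, 108, 781 and 286, a 4.23-fold and a 2.71-fold difference. Fbn1, the fibrillin of connective tissue microfibrils, read 105, 100.4, 361 and 283, a 4.09-fold and a 3.07-fold difference, and both rose (limma adjusted p = 0.016 and 0.0124). Its relative Fbn2, the fibrillin of the embryo, read 71.4, 67.0, 120.1 and 96.2 and rose in the model (limma adjusted p = 0.0309).

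Fbln1 read 441, 362, 1069 and 724, 2.14-fold higher in scramble cells and 1.69-fold in knockdown cells (limma adjusted p = 0.0319). Col12a1, a collagen that decorates the surface of fibres, read 72.9, 67.4, 161 and 204 and was at least 2.22-fold and at least 2.94-fold higher (limma adjusted p = 0.0136). Col6a1, a chain of beaded filaments, read 64.1, 67.1, 202 and 119.8 and was at least 3.01-fold higher in scramble and at least 1.39-fold higher in knockdown cells (limma adjusted p = 0.0279). Its partner chain Col6a2 was not detected. Sparc, a collagen-binding glycoprotein, read 1689, 1801, 2926 and 2221, under 2-fold in both populations (limma adjusted p = 0.144). Col17a1, an anchoring collagen of epithelia, read 115, 136, 79.5 and 162 and was not detected on the RA-treated scramble array. Col7a1 and Col9a2 differed by less than 2-fold in every comparison. Col16a1 was detected only after RA and read 84.5, 75.2, 112 and 121. Lum, Fbln5 and 11 collagen chains (Col10a1, Col13a1, Col14a1, Col19a1, Col23a1, Col25a1, Col28a1, Col6a2, Col8a2, Col9a1 and Col9a3) were not detected.

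Among the enzymes and inhibitors 7 of 14 compared genes, 3 of the 14 detected only after RA, rose in the additive model, against 18.9% of all genes. The 3 that fell are a share near the 16.3% of all genes. Mmp2, a gelatinase that cuts type IV collagen, read 629, 402, 3328 and 1518, a 5.14-fold and a 3.39-fold difference (limma adjusted p = 0.0128). Mmp14, the membrane-bound enzyme that activates Mmp2 protein, read 410.3, 416, 1305 and 857, a 2.94-fold and a 1.72-fold difference (limma adjusted p = 0.0385). Timp2, the inhibitor that takes part in that activation, read 136, 103, 1049.8 and 922, an 8.65-fold and an 11.4-fold difference (limma adjusted p = 0.00947). All members of this activation complex were thus brighter on both RA arrays than on both undifferentiated arrays.

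Mmp15, another membrane-bound metalloproteinase, read 146, 142, 623 and 844, a 4.48-fold and a 6.14-fold difference. Mmp23 was detected only after RA and read 75.1, 81.0, 439 and 338, at least 7.75-fold and at least 5.55-fold higher. Mmp16, also membrane-bound, read 56.9, 60.3, 149 and 141. All these rose in the model, with limma adjusted p of 0.0102, 0.0104 and 0.0104. Timp3, an inhibitor that stays bound to the matrix, read 121, 95.3, 289 and 183, a 2.46-fold and a 1.96-fold difference (limma adjusted p = 0.0219).

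The 3 that fell were dimmer after RA in both populations. Timp1, a secreted inhibitor, read 713, 729.9, 486 and 465, lower by 0.86 in scramble cells and by 1.06 in knockdown cells, the latter past 2-fold (limma adjusted p = 0.026). Its second probe differed by -0.72 in scramble cells and was close to 2-fold lower in knockdown cells. Mmp17 read 305, 274, 213 and 235 and fell by 0.87 on the log2 scale, and Mmp9, the other gelatinase, read 92.3, 107, 76.9 and 93.8 and fell by 0.83 (limma adjusted p = 0.0322 and 0.0306). Mmp9 was not detected on the RA-treated scramble array. Mmp11, Mmp1a and Mmp28 differed by less than 2-fold in every comparison. Mmp19 was detected on the RA-treated scramble array alone, with signals of 80.0, 83.9, 100.1 and 83.2, and Mmp10, Mmp12, Mmp13, Mmp1b, Mmp20, Mmp21, Mmp24, Mmp27, Mmp3, Mmp7, Mmp8 and Timp4 were not detected.

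The RA effects of the 2 populations, which share no array, ran in the same order for most genes. Of the 43 genes compared in both, 15 were at least 2-fold higher in both and 26 had the larger effect in scramble cells, bounds included. Across these genes Pearson's r was 0.90 and Spearman's rho was 0.91, as a description over genes that are not independent and were normalized together. No values over all genes are given beside these counts and correlations, so they are not shown to be particular to matrix genes. Genes with the larger effect in knockdown cells included Timp2 and Mmp15 and, by their bounds, Dcn and Col12a1.

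**Figure D2:**
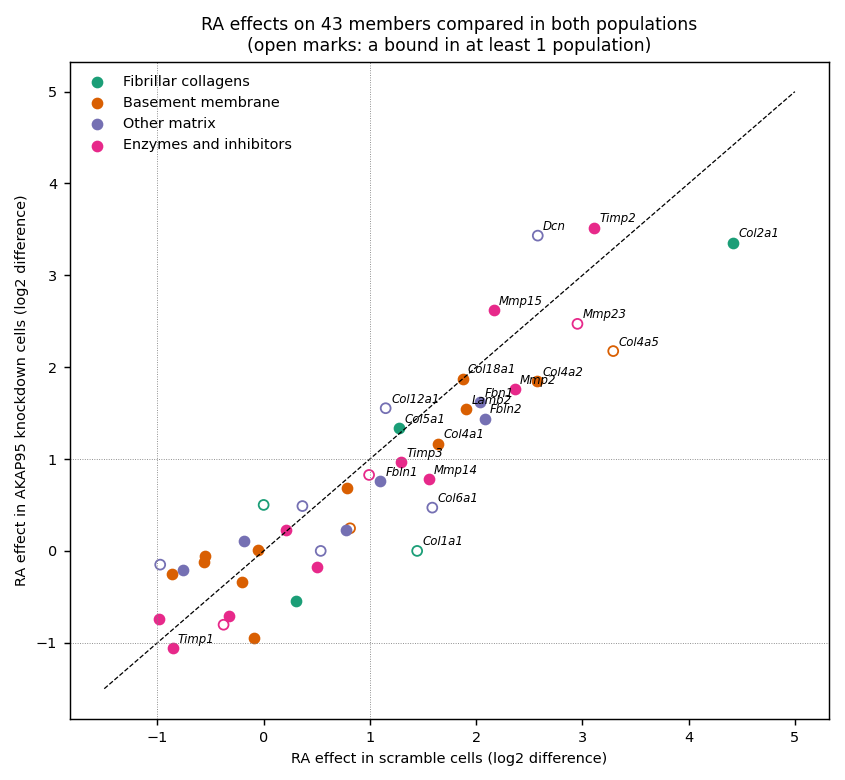
RA effect (log2 difference, RA-treated less undifferentiated) in knockdown cells against that in scramble cells, 1 mark for each of the 43 genes compared in both, coloured by kind of gene and open where at least 1 value is a bound. The dashed line marks equal effects; 26 genes lie below it, with Col2a1, Col4a5 and Col1a1 among them, and Dcn, Timp2 and Mmp15 lie above it.

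In undifferentiated cells the knockdown was accompanied by small differences in matrix genes. Of 32 genes compared, 0 were at least 2-fold higher and 1 was lower, where 0.0687% and 0.126% of all genes were. The 1 gene was Fbln2, at 182 in scramble and 108 in knockdown cells, a difference of -1.06. It was under 2-fold in 4 of 8 other settings, and another Fbln2 probe did not show it. Mmp2, Timp2 and Timp3 followed at -0.62, -0.61 and -0.56, and the median over the 32 genes was 0.08. For comparison, 95% of all genes lay between -0.52 and 0.48 in this pair of arrays.

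After RA, the fibulin gene Fbln2 and the gelatinase gene Mmp2 were at least 2-fold lower in knockdown cells, among the 30 genes detected on all 4 arrays. Of these 30, 2 were lower and 0 higher, against 1.95% and 3.12% of all genes detected on all 4 arrays. Their median difference was -0.18, with 18 below 0 and 12 above, where the median of all such genes was 0.02. Of all 47 genes compared, 6 were at least 2-fold lower, against 3.25% of all genes, and 1 was at least 2-fold higher, against 3.17%. Col3a1, Col24a1, Lama4 and Mmp19 entered these 47 through the RA-treated scramble array alone and could only be lower. Col17a1 and Mmp9 were detected on the knockdown array of this pair alone and could only be higher. The counts over 47 are therefore a description. The 6 came from every kind of gene. They were Fbln2 (-1.71), Col1a1 (-1.68), Mmp2 (-1.22), Col6a1 and Col4a5 (both -1.11), and Col3a1, at least 1.05 lower. Their signals in scramble and knockdown cells were 781 and 286 for Fbln2, 187 and 89.1 for Col1a1, and 3328 and 1518 for Mmp2. Only Mmp2 of the 6 stayed past 2-fold under all 8 other settings tried.

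Col17a1 was the gene at least 2-fold higher, by at least 1.26, detected at 162 in knockdown cells and not in scramble cells. Lama1, Timp3 and Col2a1 lay at -0.97, -0.89 and -0.78, and Dcn at 0.85. The RA-treated scramble array also stands in the RA effect of scramble cells, so a high value on it makes both differences larger, and the 2 comparisons are not separate evidence.

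Over both states, the additive limma model called 0 of the 47 genes and 0% of all 9875 genes for the knockdown at an adjusted p under 0.05, where 5 of the 47 and 412 of all genes had an unadjusted p under 0.05. The 5 were Fbln2, Mmp2 and Timp3, lower in knockdown cells, and Mmp9 and Col17a1, higher. Akap8 itself did not pass in this model (-0.98 ± 0.19, SE; adjusted p = 0.818), so the difference of the targeted gene was itself not called. Fbln2 had the largest difference of the 47, at -1.38 ± 0.23 (SE; adjusted p = 0.818). Whether a knockdown effect differed between undifferentiated and RA-treated cells could not be tested with 1 array per group.

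**Figure D3:**
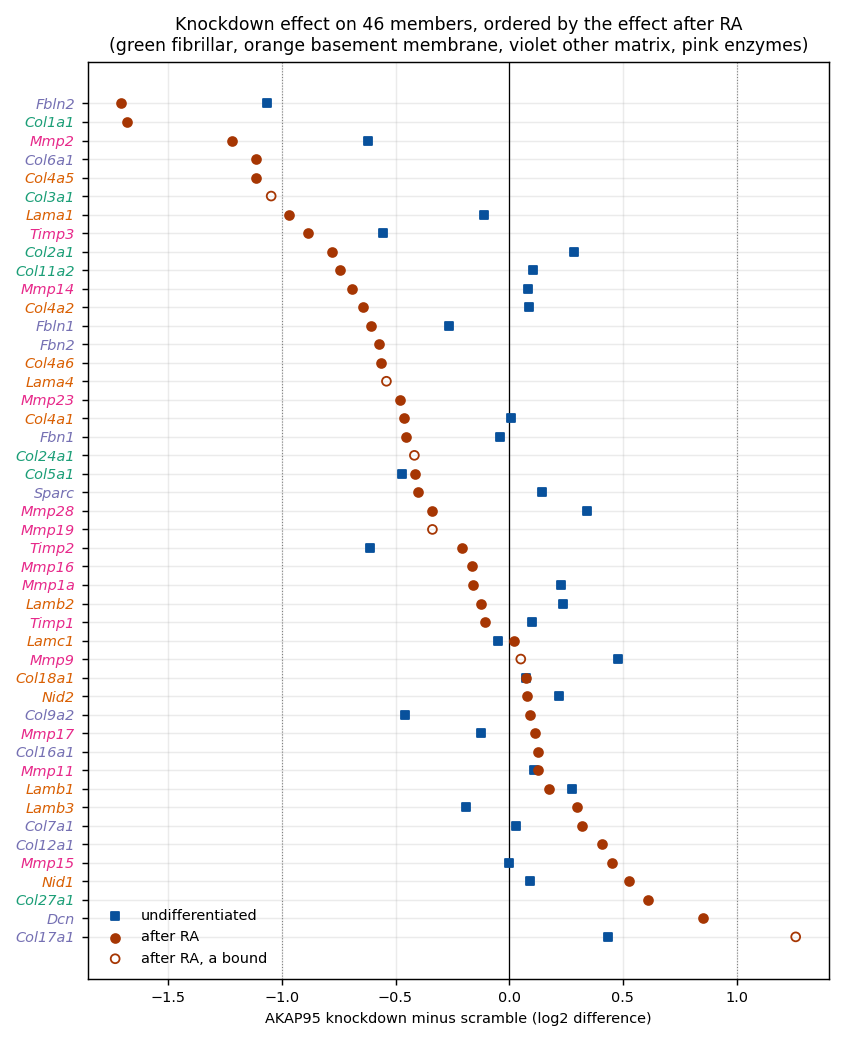
Knockdown effect (log2 difference, AKAP95 knockdown less scramble) for 46 of the 47 matrix genes, ordered by the effect after RA, with squares for undifferentiated cells and circles for RA-treated cells, open where the value is a bound. Dotted lines mark 2-fold; after RA 6 genes lie at or beyond the line on the low side and Col17a1 beyond that on the high side, while Fbln2 alone reaches the line in undifferentiated cells.

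Other markers differed between the same 2 RA arrays. Of all genes compared between them, 3.17% were at least 2-fold higher and 3.25% lower in knockdown cells. A marker detected on 1 of these arrays alone could only be higher on that array. The ES cell markers were higher in knockdown cells in 4 of 5 cases, with Pou5f1 at 173 in scramble and 443 in knockdown cells. Of 8 compared trophoblast markers 5 were higher and 0 lower, and Hand1, Gcm1 and Prl3d1 were not detected. Of 11 endoderm markers 3 were lower (Gata6, Sox17 and Pth1r), of 4 neural markers 3 were lower, and of 6 fibroblast markers 1 was lower, Vim at 2167 and 976. The part of these cell types in the knockdown differences of the matrix genes was not tested.

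Several genes were covered by more than 1 probe, and the text reads each from its brightest. The 3 probes of Fbln2 did not match. The brightest read as above, 1 was not detected on any array, and the third read 67.6, 86.2, 132 and 91.7. On the third probe the undifferentiated scramble array was not above background while the knockdown array was, and the difference after RA was -0.90. The low value of Fbln2 in undifferentiated knockdown cells was seen with the brightest probe alone, and the low value after RA with 2 probes. For Col18a1, 2 probes gave RA effects of 1.87 and 1.70 in scramble cells and a weak one gave -0.03.

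For Col6a1 a second probe was detected only on the RA-treated scramble array, at 141, and the third was not detected. The second Dcn probe read 53.3, 56.4, 97.5 and 172, with knockdown again above scramble after RA. Second probes of Timp3, Mmp16 and Col3a1, and 1 of 3 for Fbln1 and for Col4a6, were not detected on any array. The other Fbln1 probe was detected on the RA-treated scramble array alone, and the other Col4a6 probe read 63.6, 56.6, 129.5 and 92.4.

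**Figure D4:**
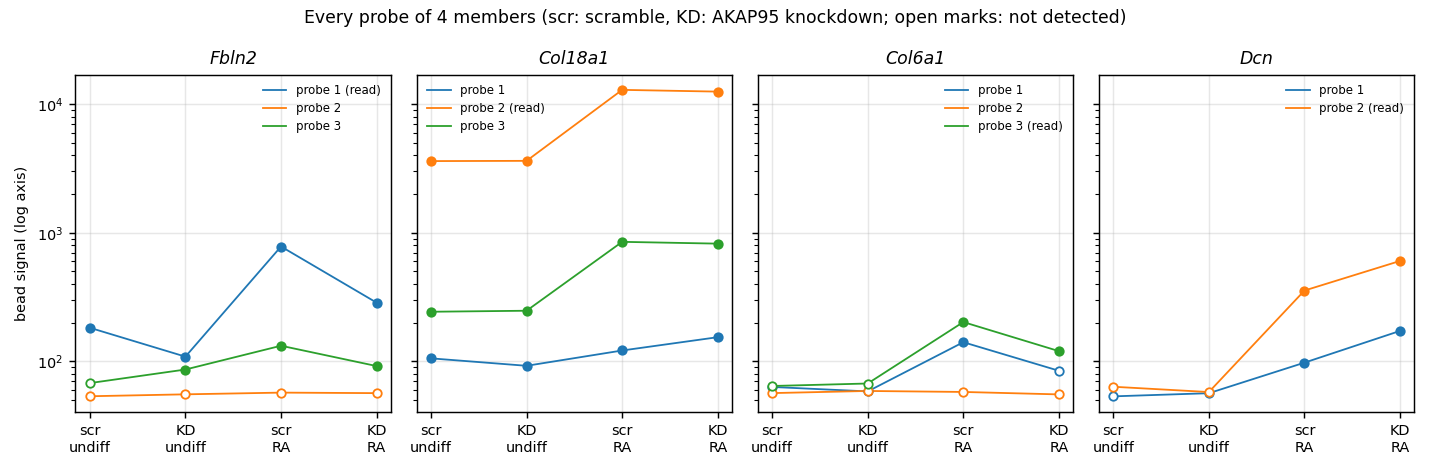
Signal (log axis) of every probe of Fbln2, Col18a1, Col6a1 and Dcn on the 4 arrays, 1 line per probe, open marks where it was not detected and "read" for the probe used in the text. The brightest Fbln2 probe falls from 182 to 108 between the undifferentiated arrays while the third rises from 67.6 to 86.2, and the 2 detected Dcn probes have the same order of arrays after RA.

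Collagen chains need helpers to be folded, trimmed and crosslinked, and several genes for these steps were higher with RA as well. Of 18 such genes compared, 9 rose and 1 fell in the additive model, against 18.9% and 16.3% of all genes. In scramble cells 8 of 18 were at least 2-fold higher and 1 lower, against 14.2% and 11.8%, and in knockdown cells 6 of 17 were higher and 1 lower, against 12.4% and 9.81%. P3h2 and Lox were detected only after RA and could only be higher in these pairs, as could Loxl2 in knockdown cells. Serpinh1, the collagen chaperone of the endoplasmic reticulum, read 206, 246, 1362 and 847, a 6.63-fold and a 3.02-fold difference. Bmp1, the protease that removes the end of procollagen, read 124, 156, 694 and 542, a 6.44-fold and a 3.26-fold difference. P4ha1, the catalytic chain of prolyl hydroxylase, read 86.5, 87.8, 320.1 and 275, a 5.17-fold and a 3.92-fold difference.

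Loxl1, a crosslinking oxidase, and P3h3, a member of the prolyl hydroxylase family, were 3.27-fold and 3.14-fold higher in scramble cells. Pcolce, which speeds the cut made by Bmp1, went the other way. It read 648, 734, 376 and 227, 2.23-fold lower in scramble cells and 5.08-fold lower in knockdown cells (limma adjusted p = 0.0309). Between the RA arrays 0 of the 18 were at least 2-fold higher in knockdown cells and 1 was lower, against 3.17% and 3.25% of all genes compared. The 1 gene was P3h2, at 159 in scramble and 101 in knockdown cells.

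**Figure D5:**
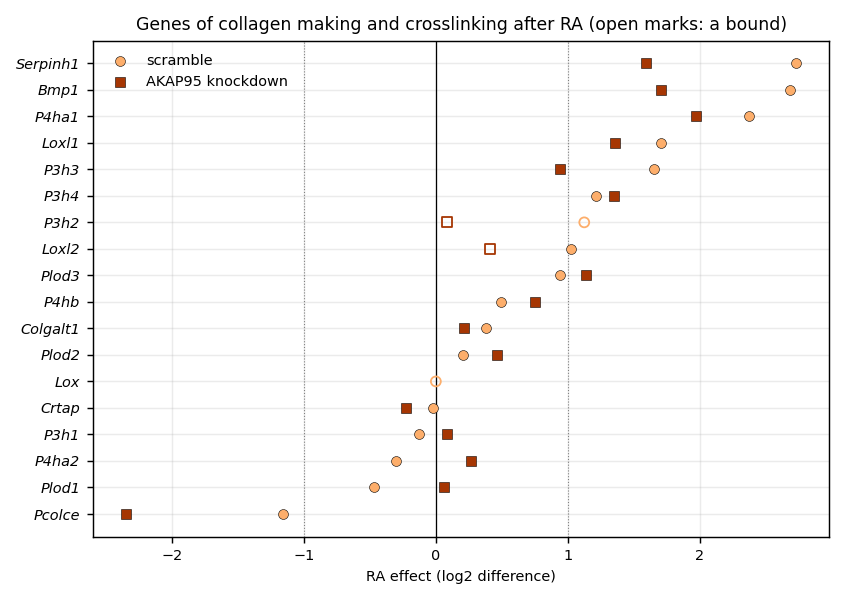
RA effect (log2 difference) on the 18 compared genes of collagen making and crosslinking, circles for scramble and squares for knockdown cells, open where the value is a bound. Serpinh1, Bmp1 and P4ha1 lie farthest to the right and Pcolce alone lies beyond 2-fold on the left.

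Matrix receptors bind the cell to these proteins. Of 15 compared, 4 rose and 1 fell in the additive model, against 18.9% and 16.3% of all genes. By at least 2-fold, 2 were higher and 1 lower in scramble cells, against 14.2% and 11.8% of all genes compared. In knockdown cells 3 were higher and 1 lower, against 12.4% and 9.81%. Itga11 was detected only after RA and could only be higher in these pairs. Sdc2, a cell-surface heparan sulfate proteoglycan, read 127, 123, 845 and 655, a 7.65-fold and a 5.79-fold difference. Ddr1, a collagen receptor kinase, was 2.37-fold higher in scramble cells, and the dystroglycan gene Dag1 and integrin gene Itga3 were 2.06-fold and 2.02-fold higher in knockdown cells. Itga6, a chain of laminin-binding integrins, read 575, 583, 302 and 355 and fell (limma adjusted p = 0.0164).

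Among 13 other matrix and protease-control genes tested, 9 rose and 2 fell, against the same 18.9% and 16.3%. In scramble cells 6 of 12 were at least 2-fold higher and 1 was lower, against 14.2% and 11.8% of all genes compared. In knockdown cells 6 of 13 were higher and 2 lower, against 12.4% and 9.81%. Tnc, Thbs2, Plau, Plat and Adamts1 were detected only after RA and could only be higher in these pairs. The counts for this list are therefore a description. The basement membrane proteoglycans Agrn and Hspg2 read 2770.0, 3181, 8239 and 11166 and 745, 786, 2169 and 3242, both brightest in RA-treated knockdown cells. Reck, a membrane-anchored inhibitor of metalloproteinases, read 174, 129, 652 and 368, and Furin, a protease that activates membrane-bound metalloproteinases, read 642, 517, 1905 and 2194. Tnc, the glycoprotein tenascin-C, was detected only after RA and read 59.6, 64.8, 211 and 177. Adamts1, a proteoglycan-cutting protease, read 56.2, 63.6, 250.1 and 126 and was lower by 1.40 in knockdown cells after RA. Ccn2, a matrix-bound signalling protein, read 2786, 4230.2, 1117 and 2122. Of the 13 genes of this list compared between the RA arrays, 1 was at least 2-fold higher in knockdown cells (Ccn2) and 1 lower (Adamts1). The shares of all genes compared were 3.17% and 3.25%.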

How the data were processed

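Total RNA of the 4 cell populations was made into biotin-labelled cRNA and hybridised to Illumina bead arrays, per the labels' protocols. The authors deposited an average bead intensity per probe and array, without normalization, a detection p-value, and a ratio in which the intensity is divided by its array's median, the median normalization named in the series' design text. The scanner software and its version are not given in the sources used here.

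Intensities were background-corrected from the detection p-values, given an offset of 16, quantile-normalized and put on the log2 scale with limma 3.58.1 in R 4.3.3. Later steps used Python 3.11.15, pandas 2.3.3 and numpy 2.4.6. Of the 119 probes 117 were named through their RefSeq accession and 2 through their symbol. Each gene was read from the probe of highest mean. Detection meant a detection p under 0.01 and a pair was compared if the gene was detected on at least 1 side. On a side without detection the value was raised to the lowest detected log2 value of that array, which makes the difference a bound. The additive limma model (RA and shRNA) had 1 residual degree of freedom, with 2.83 prior degrees of freedom, and Benjamini-Hochberg adjustment ran over 9875 genes at a threshold of 0.05. The code was tested on simulated data. The number of arrays limits the precision of every value.

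Genes named are all members past 2-fold in any comparison with their signals, every other detected member but 1 at least once, members detected on no array without values, and at most 6 genes past 2-fold of each of 3 further lists. P3h2 and Ccn2 were named in addition, as single genes behind a count, after their values were seen. Members and lists were chosen with earlier results of these data known. Alternatives changed the background correction, offset, scaling, probe choice, detection limit, bounds and filter, or the variance model. The values of 1 member, which stays in the counts, are not reported here. Results on 3 genes that carried older symbols in the files were left out.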

Additional observations from a re-analysis of the deposited data

Results flagged for a closer look

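3 genes had effects of opposite sign in the 2 populations or states, each at least 0.25 in size and measured without a bound. None of these differences was tested, since there is 1 array per group. The RA effect on Col11a2 was 0.31 in scramble cells and -0.54 in knockdown cells, with all its signals between 92.7 and 124. The knockdown effect on Col2a1 was 0.28 in undifferentiated cells and -0.78 after RA, and its second probe gave -0.04 and -0.65. The knockdown effect on Mmp28, a metalloproteinase of skin, was 0.34 in undifferentiated cells and -0.34 after RA, with signals of 88.9, 97.6, 124 and 109.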

How the results depend on the processing

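No difference past 2-fold changed sign under any of the alternatives run. Of the 20 genes at least 2-fold higher after RA in scramble cells, 15 stayed past 2-fold in all 8 settings for the pairwise values, as did 13 of the 16 past 2-fold in knockdown cells, 0 of 1 for the knockdown in undifferentiated cells and 1 of 7 (Mmp2) for the knockdown after RA. Without background correction the median RA effect in scramble cells was 0.40, and the counts of genes lower after RA in knockdown cells, lower with the knockdown in undifferentiated cells and higher with it after RA were each 0, with 2 lower after RA. An offset of 50 and the deposited median-normalized values gave 0, 0 and 0 for the same counts and 3 lower after RA, and the deposited values left 1 gene fallen in the limma model. Those values moved the median RA effect of all genes in knockdown cells to 0.11, and 70.9% of all calls there were higher, against 55.8% in the values reported. Median scaling alone gave 0 genes lower after RA in knockdown cells. The counts over all genes moved too. Of all 9397 genes compared for the knockdown after RA, 305 were lower and 298 higher in the values reported. They were 145 and 135 without background correction, 182 and 188 with an offset of 50, and 158 and 187 with the deposited values. Of all 9530 genes compared for RA in knockdown cells, 935 were lower. In the same 3 settings 563, 671 and 470 were, and 818 with median scaling. The mean of all probes gave 1 gene lower after RA in scramble cells, 0 lower with the knockdown in undifferentiated cells and 3 lower with it after RA. With a detection limit of 0.05, and also without bounds, 1 gene was lower after RA in scramble cells, and without bounds the median there was 1.10. Without any filter 1 gene was lower there too, and the medians were 0.24 and 0.10 for RA in scramble and knockdown cells and -0.069 for the knockdown after RA. With genes detected on all 4 arrays alone, 15 rose in the limma model, of 30 tested. No share of all genes is given for that filter, so this count is a description. The causes of these changes were not tested, other than that fewer or more genes were compared. The knockdown effect on Fbln2 in undifferentiated cells lay between -1.09 and -0.06 over the settings, the last with the mean of its 3 probes.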
